A study of Rattus norvegicus with 6 samples.

Results

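Mast cells and basophils store proteases in their secretory granules and release them with histamine when the IgE receptor is crosslinked. RBL-2H3, a rat basophilic leukemia line used as a model of both cell types, was examined here for 10 of these genes: 6 chymase genes and relatives (Mcpt1, Mcpt2, Mcpt4, Mcpt8, Mcpt9 and Mcpt10), the alpha-chymase gene Cma1, the tryptase genes Tpsab1 and Tpsb2, and the carboxypeptidase gene Cpa3. They were taken by symbol from the 22601 genes of the deposited expression table, and all 10 were found with no duplicate. The wild-type cells were sequenced in 2 groups. The control group had 3 libraries with no PIO, and the PIO group had 3 libraries from cells given 10 µM PIO for 6 h. The series names PIO as an agonist of PPARγ, a nuclear receptor that is best known for its part in fat cells. The labels give no vehicle, no control time and no separate cultures, so the test measures only the spread between these libraries, and a vehicle effect cannot be told apart from PIO.

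Many chymases cleave proteins after aromatic residues, though not every member of the family need do so. Tryptases cleave after lysine or arginine, and carboxypeptidase A3 trims residues from the C-terminal end of peptides. In rodents the set of proteases differs between mast cell types. Mucosal mast cells of the gut are known in the rat for the chymase Mcpt2, also called rMCP-2. Connective tissue mast cells are known for Mcpt1 (rMCP-1), the alpha-chymase Cma1 (Mcpt5), Mcpt4, the tryptases and Cpa3, and Mcpt8 is a marker of basophils in the mouse. The proteases are stored bound to serglycin, a proteoglycan of the granule, and chymases are activated by removal of a short leading peptide by cathepsin C.

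Cpa3, Cma1 and Mcpt2 were the granule protease genes expressed well enough to test. The other 7 were near or at 0, including both tryptases and Mcpt8, Mcpt9 and Mcpt10, which belong to the Mcpt8 family. Values are FPKM, fragments scaled to the length of the gene and to the reads of the library. The scaling to length allows a comparison between genes. That comparison is less sure for Mcpt genes, whose alike copies can leave reads unassigned. The reads behind the FPKM were recovered as whole numbers, with library totals of 14048202 to 15084729 reads. These totals were inferred from the FPKM values, as the reads by which each library was scaled. They are not sequencing depths given by the labels. In bulk libraries like these, fewer cells that express a gene and less of its RNA per cell cannot be told apart.

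The promoters of the 3 expressed genes are shown first, with those of Mcpt4 and Mcpt8, which were nearly or fully without reads, so that the sequences can be set beside the levels. Each is the 250 bases before the transcript start in RefSeq (rat assembly GRCr8), on the strand of the gene, and capitals mark GATAA or its reverse complement TTATC, the core letters bound by GATA factors. Cpa3 lies on the minus strand at chr2:104673238-104673487, Cma1 on the minus strand at chr15:33390134-33390383, Mcpt2 on the plus strand at chr15:33841356-33841605, Mcpt4 on the plus strand at chr15:33471241-33471490 and Mcpt8 on the plus strand at chr15:33769399-33769648.
Cpa3: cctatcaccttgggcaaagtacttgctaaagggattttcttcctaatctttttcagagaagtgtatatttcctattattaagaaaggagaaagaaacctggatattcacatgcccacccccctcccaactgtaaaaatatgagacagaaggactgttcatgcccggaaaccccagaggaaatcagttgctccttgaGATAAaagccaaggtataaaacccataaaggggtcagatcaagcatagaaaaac
Cma1: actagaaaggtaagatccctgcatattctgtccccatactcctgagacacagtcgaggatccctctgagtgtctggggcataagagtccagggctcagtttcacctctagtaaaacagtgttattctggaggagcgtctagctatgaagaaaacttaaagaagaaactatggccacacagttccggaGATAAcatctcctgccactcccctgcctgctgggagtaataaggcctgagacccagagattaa
Mcpt2: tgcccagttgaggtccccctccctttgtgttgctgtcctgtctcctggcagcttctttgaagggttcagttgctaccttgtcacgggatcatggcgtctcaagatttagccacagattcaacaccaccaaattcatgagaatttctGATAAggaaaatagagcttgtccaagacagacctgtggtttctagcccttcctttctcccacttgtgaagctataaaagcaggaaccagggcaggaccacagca
Mcpt4: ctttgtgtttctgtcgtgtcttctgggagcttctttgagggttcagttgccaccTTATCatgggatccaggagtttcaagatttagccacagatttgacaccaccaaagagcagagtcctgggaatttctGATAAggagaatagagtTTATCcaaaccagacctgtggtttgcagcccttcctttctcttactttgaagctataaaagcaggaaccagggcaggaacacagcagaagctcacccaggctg
Mcpt8: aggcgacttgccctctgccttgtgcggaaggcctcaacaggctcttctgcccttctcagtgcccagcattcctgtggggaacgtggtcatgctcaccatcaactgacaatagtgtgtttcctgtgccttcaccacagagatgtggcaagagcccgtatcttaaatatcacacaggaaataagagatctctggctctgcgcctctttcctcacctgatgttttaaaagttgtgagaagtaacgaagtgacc

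The motif GATAA, searched on both strands, was present in all 3 expressed promoters. It ended 49 bases before the start in Cpa3, 58 in Cma1 and 99 in Mcpt2. It was also present in 3 of the 6 promoters found for the other members: 3 copies in Mcpt4, 3 in the gene that the table calls Mcpt1, and 2 in Tpsab1. Tpsb2, Mcpt8 and Mcpt9 had no copy in this window. Of 33469 RefSeq promoters of the same length, 23.5% held at least 1 copy. The E-box CANNTG, whose sequence reads alike on both strands, was present in 7 of 9 member promoters, against 65.5% of all promoters, and was not found in Cma1 or in the table's Mcpt1. No GATAA match of a member overlapped a CANNTG match. TATAAA, the core of the TATA box, was searched on the gene strand and found in 4 of 9 member promoters, Cpa3 and Mcpt2 among them but not Cma1, against 8.06% of all promoters. The Mcpt2 and Mcpt4 windows had 200 of 250 bases identical in a global alignment (80.0%), and those of Mcpt8 and Mcpt9 had 233 (93.2%). The window of the table's Mcpt1 was 86.0% identical with that of Mcpt2 and 84.8% with that of Mcpt4. Mcpt1, Mcpt2 and Mcpt4 all held both TATAAA and GATAA. The member counts are therefore not of independent sequences, and no enrichment is read from them. Promoters were matched by GeneID for 9 of 10 members, all but Mcpt10. These matches describe the letters only.

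Gene names in this family have moved between annotations, which bears on the rows used. The row named Mcpt2 has GeneID 29266 and the product name mast cell protease 2. RefSeq for GRCr8 gives the same GeneID the symbol Mcpt1, with both rMCP-1 and rMCP-2 among its synonyms. The row named Mcpt1 has GeneID 29265, which is called Vch there, and rMCP-1 is also a synonym of Mcpt1l1, a separate row. The symbols below are those of the deposited table, and the mucosal type of the Mcpt2 row rests on that name.

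Cpa3 (GeneID 54242) was the most abundant of the 10 genes. The control libraries measured 194, 192 and 200.1 FPKM (replicates 1 to 3), and the PIO libraries 175, 192 and 206 FPKM. PIO libraries held both the lowest and the highest value, so the groups overlapped. The mean over all 6 libraries was 193 ± 10.4 FPKM (SD, n = 6), which placed Cpa3 at rank 394 of 22601 genes. It rested on 3526 to 4245 reads per library.

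Cma1 (GeneID 25627), the rat counterpart of mouse Mcpt5, was the most abundant chymase gene. In replicates 1 to 3 it stood at 45.5, 35.6 and 47.9 FPKM without PIO, and at 42.5, 49.1 and 44.0 FPKM when PIO was given. Control replicate 2 was the lowest library, and the other control values fell within the range of the PIO values. Its mean was 44.1 ± 4.82 FPKM (SD, n = 6), rank 2055, from 493 to 695 reads per library.

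Mcpt2, the mucosal chymase gene by its name in the table, came next. Control replicates 1 to 3 had 20.4, 19.2 and 16.1 FPKM, and PIO replicates 1 to 3 had 18.8, 23.1 and 19.8 FPKM. Control replicate 3 was lowest and PIO replicate 2 highest, and the remaining 4 libraries were interleaved. The mean was 19.6 ± 2.28 FPKM (SD, n = 6), rank 4192, from 177 to 246 reads. The gene length recovered for it, 744 bases, was shorter than the 981 bases of Cma1.

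Among the 3 expressed genes the order was the same in each of the 6 libraries, and the ranges of neighbours did not overlap. Cpa3 exceeded Cma1 by 3.90-fold to 5.40-fold and Cma1 exceeded Mcpt2 by 1.86-fold to 2.98-fold within a library. Cpa3 held 72.5% to 77.7% of the summed FPKM of the 10 genes, Cma1 14.4% to 18.6% and Mcpt2 6.07% to 8.73%. The other 7 genes together held 0.125% to 0.602%. Summed over the 10 genes, the control libraries had 258 ± 9.33 FPKM and the PIO libraries 257 ± 18.0 FPKM (SD, n = 3 each).

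**Figure D1:**
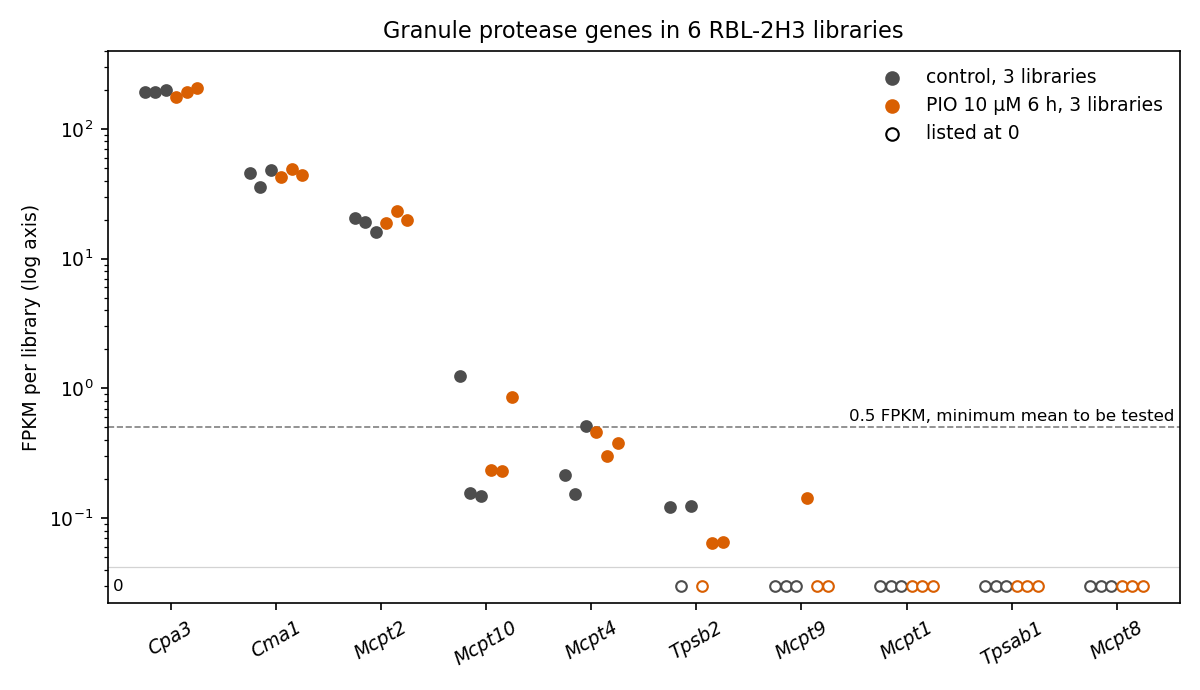
FPKM of the 10 granule protease genes (log axis) in each of 6 libraries, control replicates 1 to 3 and then PIO replicates 1 to 3 from left to right within a gene; open circles are values listed at 0. Cpa3, Cma1 and Mcpt2 sit between 16.1 and 206 FPKM with the groups mixed, and the other genes at or under 1.24 FPKM.

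Mcpt10 and Mcpt4 followed far below. Mcpt10 (GeneID 54269), of the Mcpt8 family, had 17, 2 and 2 reads in the control libraries (replicates 1 to 3) and 3, 3 and 11 in the PIO libraries, or 0.149 to 1.24 FPKM. Control replicate 1 and PIO replicate 3 stood above the rest in opposite groups. The exact 95% Poisson interval of the 17 reads (9.90 to 27.2) did not meet that of 2 reads (0.242 to 7.22), which covers counting error only. Its mean of 0.478 FPKM lay just under the minimum of 0.5 for testing. Mcpt4 (GeneID 54270), a chymase of connective tissue mast cells, had 3, 2 and 7 reads in control and 6, 4 and 5 with PIO, or 0.152 to 0.509 FPKM. The exact Poisson intervals of all its 6 values overlapped, as did those of Mcpt4 and Mcpt10 in every library but control replicate 1.

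The tryptase genes had almost no reads. Tpsb2 (GeneID 29268), the counterpart of mouse Mcpt6, had 2, 0 and 2 reads in the control libraries (replicates 1 to 3) and 0, 1 and 1 in the PIO libraries. That is at most 0.124 FPKM, where 3 reads would be 0.183 to 0.196 FPKM. For a library with 0 reads, the exact Poisson interval allows an expected count of up to 3.69 reads. Tpsab1 (GeneID 54271), the counterpart of mouse Mcpt7, was listed at 0 in all 6 libraries.

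Of the Mcpt8 family, Mcpt8 (GeneID 29269) was listed at 0 in all 6 libraries. Mcpt9 (GeneID 54272) was above 0 in PIO replicate 1 only, at 0.143 FPKM, which is 1 read for a length of 498 bases or 2 reads for 996. The row named Mcpt1 was also at 0 in every library. Single reads were listed above 0, so a value of 0 stands for 0 assigned reads. The exact Poisson interval of 0 reads still allows an expected count of up to 3.69 reads in a library. A value of 0 can also come from reads that were not assigned. Polr2h, an RNA polymerase subunit gene that every cell uses, was listed at 0 in all 6 libraries, and copies in this family are alike. Levels of Mcpt rows are uncertain for the same reason.

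None of the 3 tested members passed the test of PIO against control. The test was limma on log2(FPKM + 0.5) over the 10410 genes whose mean reached 0.5 FPKM. Under it 4 of 10410 genes (0.0384%) passed an adjusted p of 0.05, so 0 of 3 is near that share. No member had an unadjusted p under 0.05, against 12.5% of all tested genes, and limma-voom on the recovered reads passed 0 of 3 as well. The groups overlapped for all 3, while 18.5% of the tested genes had groups that did not overlap. Of the 3 members 2 were above 0 and 1 below in log2 fold change, with a median of 0.08, against a median of 0.01 for all tested genes.

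Mean Cpa3 was 195 ± 4.12 FPKM in the control libraries and 191 ± 15.4 FPKM in the PIO libraries (SD, n = 3 each), and its log2 fold change was -0.04 (SE 0.06, adjusted p = 0.794 in limma). The 95% interval of the fold ran from 0.891 to 1.06. For Cma1 the means were 43.0 ± 6.53 and 45.2 ± 3.46 FPKM and the log2 fold change 0.08 (SE 0.11, adjusted p = 0.774 in limma), with a fold interval of 0.892 to 1.25. For Mcpt2 they were 18.6 ± 2.22 and 20.6 ± 2.25 FPKM and the log2 fold change 0.15 (SE 0.10, adjusted p = 0.564 in limma), with a fold interval of 0.943 to 1.299. These intervals, from 3 libraries a group, are not limits of detection, because passing needed an adjusted p under 0.05 over 10410 genes. The smallest change that would have passed was not tested. The sign for Cma1 turned without control replicate 2 (-0.05) and the sign for Cpa3 turned without PIO replicate 1 (0.02), while Mcpt2 was 0.05 without control replicate 3 and 0.06 without PIO replicate 2.

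**Figure D2:**
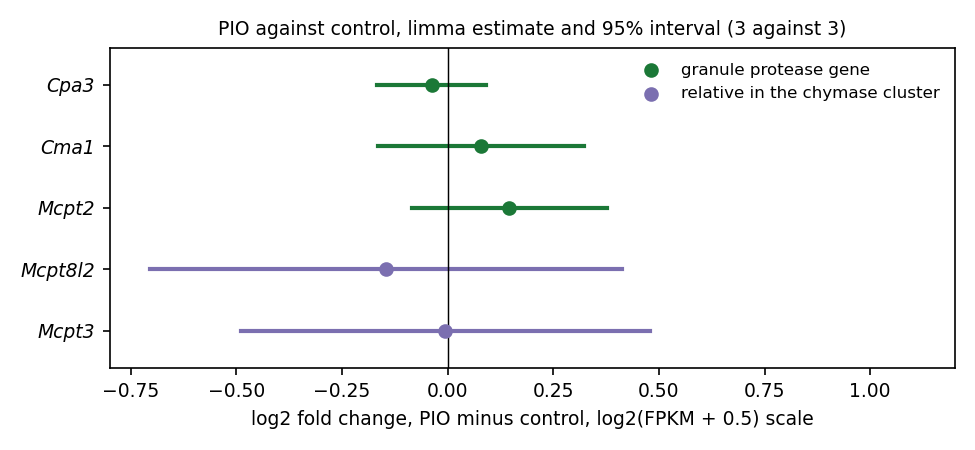
Log2 fold change of PIO against control on the log2(FPKM + 0.5) scale for the 3 tested members (green) and 2 tested relatives (purple); points are limma estimates and lines 95% intervals from 3 against 3 libraries. All 5 intervals include 0, and those of Mcpt8l2 and Mcpt3, the genes with the fewest reads, are the widest. The SE of Mcpt8l2 and Mcpt3 was larger still when 0.1 was added in place of 0.5.

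The chymase genes form a cluster that also holds granzyme genes and the cathepsin G gene. By their order in RefSeq (GRCr8), 20 protein-coding genes of the table lie from Cma1 at one end to Gzmb at the other. Of these 4 had a mean that reached 0.5 FPKM and 9 were at 0 in all libraries. Cma1 is at the edge, followed by Mcpt4l1 at 0, Mcpt4 at 0.336 FPKM and Mcpt3, whose promoter window had 221 of 250 bases identical with that of Mcpt4, at 0.679 FPKM. Mcpt2 (19.6 FPKM) lies between Mcpt9 (0.0238 FPKM) and Mcpt1l1 (0). The granzyme genes and Ctsg, proteases of killer cells and neutrophils, had 0 to 0.0802 FPKM. The flanking genes Khnyn and Sdr39u1 next to Cma1 stood at 7.49 and 5.38 FPKM.

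**Figure D3:**
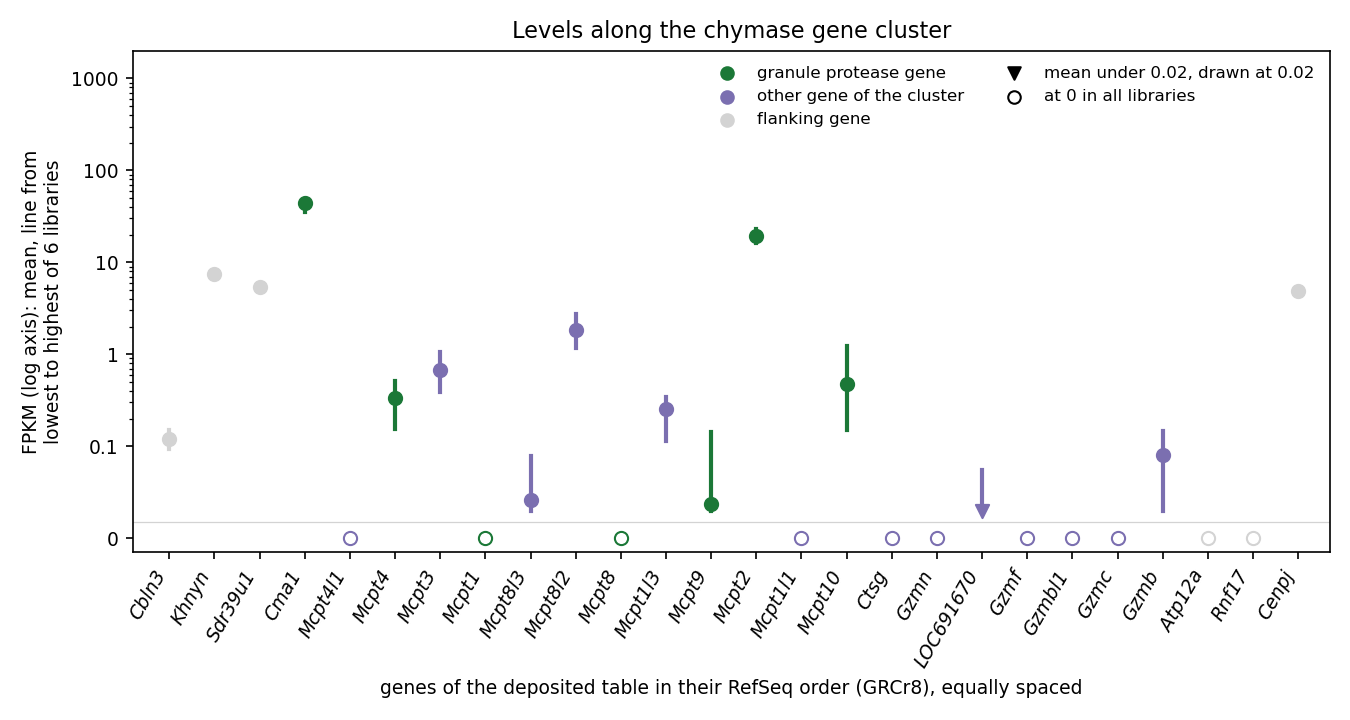
Mean FPKM (log axis) of 20 genes of the chymase cluster and 3 flanking genes on each side, in RefSeq order and equally spaced; lines run from the lowest to the highest of 6 libraries, cut at 0.02, and open circles are genes at 0 in all libraries. Cma1 (44.1 FPKM) and Mcpt2 (19.6 FPKM) stand above all other genes of the cluster, and the next is Mcpt8l2 at 1.83 FPKM.

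Mcpt8l2, a member of the Mcpt8 family outside the 10 genes, was the only gene of that family that could be tested. It had 22, 19 and 30 reads in control and 14, 33 and 16 with PIO, and its mean was 1.83 FPKM. Its log2 fold change was -0.15 (SE 0.24, limma adjusted p = 0.822). Mcpt3 had 5 to 14 reads per library and its log2 fold change was -0.01 (SE 0.21, adjusted p = 0.995 in limma). At such low levels the 0.5 FPKM added before the log narrows the spread. With 0.1 added instead, the SE was 0.29 for Mcpt8l2 and 0.32 for Mcpt3, and in limma-voom 0.33 and 0.39. Both genes had PIO replicate 1 lowest and PIO replicate 2 highest.

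The tryptase cluster had almost no reads. Of its 5 genes in the table, Prss34, Prss29, Tpsab1 and Tpsg1 were at 0 in all libraries, and Tpsb2 had a mean of 0.0626 FPKM. Cpa3 lies apart from both clusters, next to Gyg1 (49.1 FPKM), the glycogenin gene, and Cpb1 (0.357 FPKM), which encodes a pancreatic carboxypeptidase. Of 34 listed relatives of the members 31 were in the table, 17 of them at 0 in all libraries, and 2 were tested.

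Of 18 listed genes of protease processing and of granule contents or release, 10 reached a mean of 0.5 FPKM. Another 6 lay below it and 2 were at 0 in all libraries. Srgn, the serglycin core protein gene, stood at 1714 ± 51.9 FPKM (SD, n = 6) and ranked at 33 of all genes. Ctsd, which encodes the lysosomal protease cathepsin D, stood at 545 FPKM and Hdc, which encodes the histamine-forming enzyme, at 297 FPKM. Vamp8, a membrane fusion protein gene of secretory granules, stood at 232 FPKM, and the cathepsin genes Ctsz and Ctsb at 85.9 and 54.3 FPKM. Ctsc, which encodes the chymase-activating cathepsin C and was picked after its values were seen, had 19.8 FPKM. Ndst2, which encodes a sulfotransferase of heparin synthesis and was likewise picked, had a mean of 0.0143 FPKM. None of the 10 tested genes passed (limma), with 3 at an unadjusted p under 0.05, where 12.5% of all tested genes stood. For 4 of the 10 the groups did not overlap, against 18.5% of all tested genes: Ctsd, Ctse and Chst11 were higher and Ctsc lower in each PIO library. The median log2 fold change was 0.08, with 8 above 0 and 2 below.

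The listed protease inhibitors, not all of which act on the granule proteases, were led by Serpinb1a, an inhibitor of chymases and elastases, at 239 FPKM. The cysteine protease inhibitor genes Cst3 and Cstb each stood at 138 FPKM. Lxn encodes latexin, an inhibitor of carboxypeptidases of the A type, and was at 32.6 FPKM. The serine protease inhibitor gene Spint2 was at 20.2 FPKM and Wfdc2 at 9.36 FPKM. Of 19 listed genes 18 were in the table, 6 were tested and none passed (limma), with 1 at an unadjusted p under 0.05. All 6 were above 0 in log2 fold change, with a median of 0.08, where 5618 of all 10410 tested genes were above 0 and the median was 0.01. The groups did not overlap for 2, Spint2 and Cstb, against 18.5% of all tested genes.

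Transcription factors known at protease genes included Gata2 at 507 FPKM, a GATA factor of mast cells and basophils, Tal1 at 94.4 FPKM and the signal-activated factors Stat5a and Stat5b at 67.7 and 50.3 FPKM. The myeloid factor gene Spi1 stood at 48.0 FPKM. Mitf, a factor required for mast cell development, measured 29.4, 31.3 and 32.4 FPKM in the control libraries (replicates 1 to 3), against 27.2, 26.7 and 26.4 FPKM in the PIO libraries. Each PIO value of Mitf was below each control value, but it did not pass (log2 fold change -0.21, SE 0.05, limma adjusted p = 0.27). Of 15 genes 12 were tested and none passed (limma), with 1 at an unadjusted p under 0.05, 7 above 0 and 5 below, and a median of 0.01. The groups did not overlap for 3 of 12, namely Mitf, Stat5a and Tcf4, against 18.5% of all tested genes. Over the 4 lists 9 of 30 tested genes had groups that did not overlap, against the same 18.5%, and nothing particular to the lists is read from these counts. On the recovered reads limma-voom passed 0 of 30, and 7 over all genes.

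**Figure D4:**
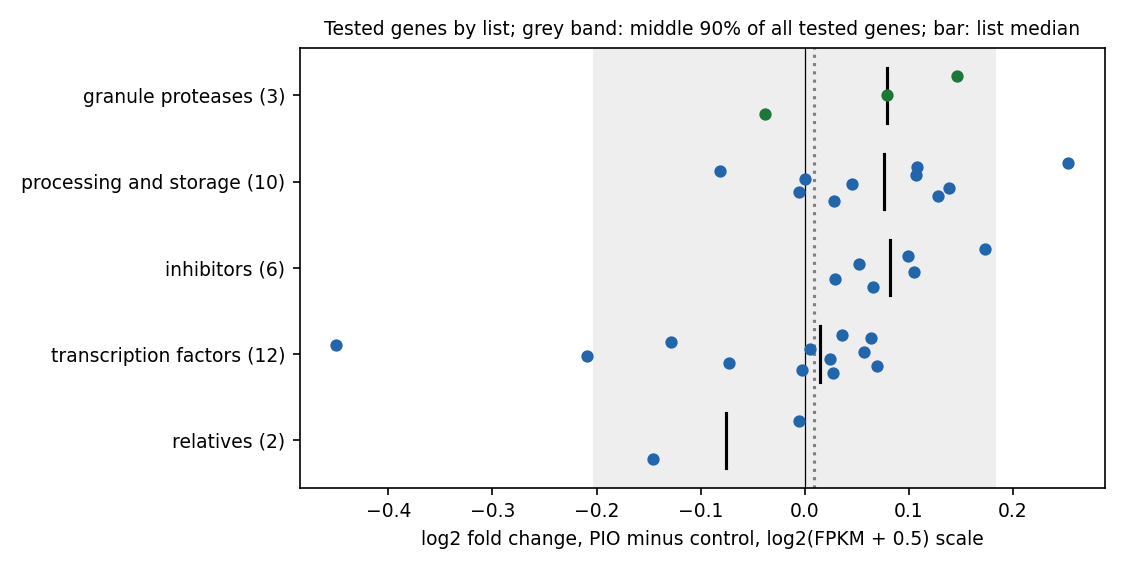
Log2 fold change of PIO against control on the log2(FPKM + 0.5) scale for each tested granule protease gene and each tested gene of the 4 lists; bars are list medians, the dotted line is the median of all 10410 tested genes and the grey band their middle 90% (-0.20 to 0.18). None of the plotted genes passed, and the list medians lie between -0.08 and 0.08.

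The 3 tested members did not move together from library to library. Over the 6 libraries the Pearson correlation of log2 values was 0.21 for Cpa3 with Cma1, -0.09 for Cpa3 with Mcpt2 and 0.13 for Cma1 with Mcpt2, given as a description of libraries that share their depth scaling. The genes whose pattern over the 6 libraries was most like that of Cpa3 were Rac1 (r = 0.984), Cmss1 (r = 0.982) and Bre (r = 0.977). With these, 47 of the 10409 genes compared had r above 0.9. Over 6 libraries the highest of so many correlations are high even for unrelated genes, so no link to Cpa3 is read from them.

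The identity of the line was checked on marker genes. All 9 markers of mast cells or basophils had a mean of at least 0.5 FPKM. The lowest, Enpp3, was barely above that, at 0.428 to 0.878 FPKM (mean 0.670). The summed level of the markers was 2911 to 3038 FPKM in control and 2952 to 3032 FPKM with PIO. They included the IgE receptor gene Ms4a2 (806 to 871 FPKM), Kit (269 to 344 FPKM), the receptor of stem cell factor, and Il3ra (10.4 to 11.3 FPKM), an interleukin-3 receptor gene. All 8 neutrophil markers were under 0.5 FPKM, with Elane, Mpo and Ctsg at 0. All 4 eosinophil and all 7 macrophage markers were also under 0.5 FPKM, with Prg2, Epx and C1qa at 0. Of 7 T and NK cell markers Cd8a, Prf1 and Gzma were at 0, while Nkg7, a granule membrane protein gene, stood at 309 to 370 FPKM and Cd3e at 0.47 to 1.15 FPKM. Of 6 fibroblast markers Col3a1 alone passed 0.5 FPKM, at 4.57 to 5.44 FPKM. Marker sums of the groups overlapped in every list except the fibroblast one. There they were 5.12 to 5.61 FPKM in control and 4.69 to 5.03 FPKM with PIO. That sum was mostly Col3a1, which did not pass (limma adjusted p = 0.46). Within the mast cell or basophil list the groups did not overlap for 2 of 9 genes, against 18.5% of all tested genes. These 2 lay in opposite directions, and nothing particular to the list is read from this count. Ms4a2 was at 856 to 871 FPKM in the control libraries and 806 to 847 FPKM in the PIO libraries (limma adjusted p = 0.447). Cd63, a granule membrane protein gene, was at 278 to 286 FPKM and 294 to 321 FPKM (limma adjusted p = 0.34). The part of these markers in the results was not tested.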

How the data were processed

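RNA from 6 RBL-2H3 libraries (3 control, 3 PIO) was made into stranded mRNA libraries, per the labels' protocols. The deposited values are FPKM, made by the authors. Trimmomatic 0.36, HISAT2 2.2.1.0, HTSeq, Cufflinks and DESeq are among the tools in the submitters' processing notes. Their roles are not given in the sources used here. The notes name the human build GRCh38 while the gene identifiers are of the rat, so no coordinates of the measured genes are given; promoter positions and gene order come from RefSeq (GRCr8), joined by GeneID (20633 of 22601 matched).

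Whole reads were recovered for 15429 of 15429 genes above 0 (tolerance 2e-05 of a read or, where larger, 3e-07 of the gene's reads) and summed to 13980244 to 15012210 per library. Where a gene has few reads, its length and reads are the smallest pair that fits, and a multiple of both cannot be told apart. Groups were compared with limma 3.58.1 (R 4.3.3) with a variance trend, two-sided, and Benjamini-Hochberg adjustment over all tested genes. The code was tested on simulated data. Other steps used Python 3.11.15, pandas 2.3.3 and Biopython 1.88.

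The members, lists and tests were chosen with earlier results of these data known. All 10 members are named, with the up to 6 genes of each list with the highest mean, any list gene that passed, list relatives with a mean of at least 0.5 FPKM, and the 3 genes most like Cpa3. Alternatives were other pseudocounts, filters, scalings and variance fits, the replicate number as a block, limma-voom on recovered reads, and each library left out.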

Additional observations from a re-analysis of the deposited data

How the results depend on the processing

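No granule protease gene and no gene of the 4 lists passed in limma under any alternative tried, and the log2 fold changes ranged from -0.094 to 0.023 for Cpa3, -0.050 to 0.16 for Cma1 and 0.05 to 0.22 for Mcpt2 over 17 alternatives, with limma adjusted p from 0.402 to 0.970. The sign turned for Cma1 without control replicate 2 (-0.050) and for Cpa3 without PIO replicate 1 (0.023). For Mcpt8l2 leaving out 1 library gave -0.44 to 0.034 (the latter without PIO replicate 1). For Mcpt3 it gave -0.22 to 0.19, with a turned sign when the library left out was control 1 (0.072), control 2 (0.015), PIO 1 (0.19) or PIO 3 (0.020), and 0.0029 with a pseudocount of 1. Mcpt3 fell under a minimum of 1 FPKM and has no value there. Over all genes 4 were called, against 1 without a filter, 2 without a variance trend, and 7 with the robust fit or limma-voom; leaving out 1 library gave 3 to 4. The cause was not tested. TPM scaling rescales every level, to 382 for Cpa3, 87.3 for Cma1 and 38.7 for Mcpt2. Leaving out 1 library gave mean FPKM of 191 to 197 for Cpa3, 43.1 to 45.8 for Cma1 and 18.9 to 20.2 for Mcpt2. Dropping 1 library cannot move a mean by 1 SD whatever the values, so these ranges do not test how stable the levels are.

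The labels number replicates alike in both groups but do not say that numbers mark shared cultures. Deviations from the group means correlated at -0.07, 0.03 and 0.08 across genes for replicates 1, 2 and 3, and not every library correlated best with its own number, so the numbers were not taken as pairs. With the replicate number as a block 3 genes were called and 0 members, with limma adjusted p of 0.754, 0.784 and 0.529 for Cpa3, Cma1 and Mcpt2 at log2 fold changes of -0.04, 0.08 and 0.15. Depth limits the 7 untested members, which had at most 17 reads in a library.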
